A study of Mus musculus with 8 samples.

Results

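The genes described here encode matrix metalloproteinases (Mmp), the related secreted metalloproteinases with thrombospondin motifs (Adamts) and the tissue inhibitors of metalloproteinases (Timp). They were chosen by name, as probe sets whose platform annotation gave 1 gene symbol starting with Mmp, Adamts or Timp and a digit. Earlier results of these data were known when this choice was made. The rule found 63 of 45141 probe sets, for 35 of 17097 named genes: 18 Mmp, 14 Adamts and 3 Timp genes. Other members of these families are not analysed here. Expression was measured on Affymetrix arrays in bulge cells, the stem cell compartment of the hair follicle, from the epidermis of 15-week old mice. The groups were 4 samples labelled G9a cKO, in which the histone methyltransferase G9a is conditionally knocked out, and 4 labelled G9a WT. All the animals had pre-neoplastic skin and had received DMBA, a mutagen (0.25 mg/ml), and TPA, a tumour promoter (0.02 mg/ml), each as 200 µl in acetone, in weekly doses over 6 weeks that began at 8 weeks of age, so no untreated skin is compared. The labels used here state neither the Cre driver, nor the deleted part of the gene, nor how the cells were isolated.

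Mmp and Adamts enzymes carry a zinc ion in their active site and cut proteins of the extracellular matrix and of the cell surface. Most are secreted as inactive precursors, become active when their propeptide is removed, and are held in check by Timp proteins, which bind the active site. In skin they take part in hair follicle growth, wound repair and tumour invasion, and much of the Mmp output of a tumour comes from its stroma rather than its epithelium. Several Mmp genes are textbook targets of AP-1, the Fos and Jun transcription factor that TPA activates. In the mouse many of the secreted Mmp genes lie side by side on 1 chromosome.

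Values are log2 expression per probe set after RMA, and the array medians lay between 5.87 and 5.95. One of 2 probe sets of Ehmt2, the gene of G9a, was 9.27-fold lower in the cKO arrays, and the other did not differ (log2 change -0.0012). All 13 marker genes of bulge and basal keratinocytes, among them Krt15, Cd34 and Lgr5, were above background in every array. RMA gives no detection call, so the 95th percentile of 86 probe sets of olfactory, vomeronasal and taste receptor genes, which skin cells are not expected to express, was taken as the background level of each array. It lay between 5.33 and 5.56. A probe set was called above background in a group where it exceeded this level in all 4 arrays. The titles number the replicates but do not say that each is a separate animal, so p-values measure the spread between these samples, whose small number limits the precision of every value.

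By this measure 15 of the 35 genes were above background in at least 1 group: 6 of 18 Mmp, 7 of 14 Adamts and 2 of 3 Timp genes. With the 99th percentile of the receptor probe sets as the level, 8 of the 35 were above it, and with the 90th percentile 17 were. With the 40th percentile of all probe sets as the level, 16 were above it. Over all genes tested 60.2% had a probe set above background in both groups. Of the 15, 14 were above background in both genotypes, and Adamts3 was so in WT, with 3 of its 4 cKO arrays also above. None was above background in cKO alone. The 20 genes not above background in either group included all 4 collagenase genes measured (Mmp1a, Mmp1b, Mmp8 and Mmp13), the stromelysin genes Mmp3 and Mmp10, the gelatinase gene Mmp9, the matrilysin gene Mmp7 and the inhibitor gene Timp1. Several of these are inducible genes of inflamed or wounded skin. Their mean levels over all arrays ran from 3.56 to 5.45, and their log2 differences between cKO and WT from -0.15 to 0.039. RMA compresses differences near the bottom of its scale, so a change in these genes may be understated or missed.

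**Figure D1:**
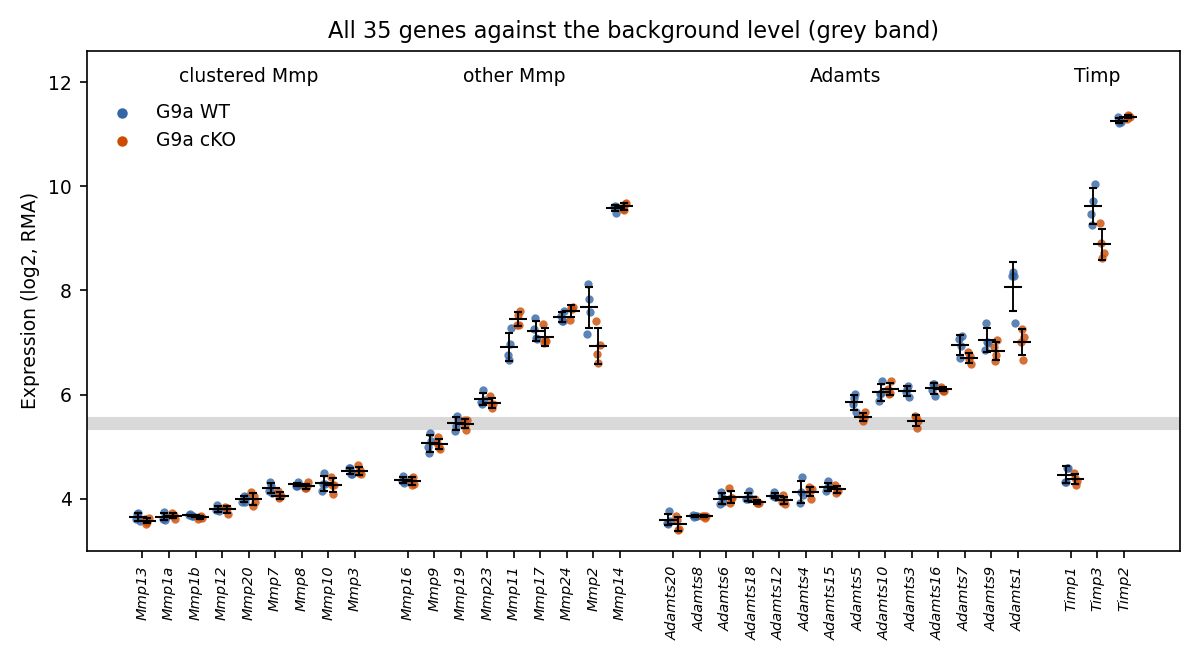
Expression (log2, RMA) of all 35 genes in each array, by the probe set tested, with the mean and SD of 4 arrays per genotype; the grey band spans the background levels of the arrays, 5.33 to 5.56. The 9 clustered Mmp genes lie below the band in both genotypes, while 6 of the other Mmp, 7 of the Adamts and 2 of the Timp genes lie above it in at least 1 genotype.

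The genes not above background included a physical group. In the order of protein-coding genes in RefSeq (GRCm38.p6), 9 of the Mmp genes follow one another on chromosome 9 from Mmp13 to Mmp7, with 1 gene that is not a member between Mmp8 and Mmp20. None of the 9 was above background in any array. Their array values ran from 3.52 to 4.64, no probe set of theirs passed the threshold, and no 95% interval of their log2 change reached beyond 0.27 in size. The 100 bases before the start of 8 of them are printed here, 5′ to 3′ on the strand of the gene. All 8 hold a match to TGANTCA, the pattern searched as the AP-1 site, in which N is any base. This is looser than a site with only G or C in the middle. In Mmp20 the match is TGAATCA, and in the others the middle base is G or C. The windows come from RefSeq's promoter windows (GRCm38.p6), which held 22 of the 35 genes. Capitals mark TGANTCA, which reads the same on both strands. This group was singled out after its values were seen.

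Mmp13 (chr9:7272414-7272513, plus strand): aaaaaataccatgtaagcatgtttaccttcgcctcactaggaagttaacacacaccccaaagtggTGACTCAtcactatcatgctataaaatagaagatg
Mmp12 (chr9:7347274-7347373, plus strand): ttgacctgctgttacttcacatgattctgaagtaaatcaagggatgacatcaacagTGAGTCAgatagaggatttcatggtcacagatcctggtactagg
Mmp1b (chr9:7388027-7388126, minus strand): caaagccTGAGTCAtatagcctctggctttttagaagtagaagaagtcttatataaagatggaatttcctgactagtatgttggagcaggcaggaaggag
Mmp3 (chr9:7445722-7445821, plus strand): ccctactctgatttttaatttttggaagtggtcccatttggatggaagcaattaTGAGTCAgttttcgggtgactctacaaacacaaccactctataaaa
Mmp1a (chr9:7464041-7464140, plus strand): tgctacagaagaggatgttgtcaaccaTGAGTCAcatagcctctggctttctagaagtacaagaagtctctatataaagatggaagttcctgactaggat
Mmp10 (chr9:7502242-7502341, plus strand): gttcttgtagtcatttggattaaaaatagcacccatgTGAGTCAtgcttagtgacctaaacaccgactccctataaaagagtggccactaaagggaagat
Mmp20 (chr9:7628131-7628230, plus strand): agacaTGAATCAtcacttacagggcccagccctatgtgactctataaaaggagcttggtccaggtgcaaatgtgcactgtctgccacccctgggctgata
Mmp7 (chr9:7691990-7692089, plus strand): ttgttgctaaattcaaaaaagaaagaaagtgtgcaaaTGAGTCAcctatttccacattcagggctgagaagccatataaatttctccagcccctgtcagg

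The match began 35 bases before the start in Mmp13 and 95 before it in Mmp20, and lay between these in the other 6. Mmp1a and Mmp1b are close copies of each other, so their probe sets can share signal. Mmp7 and Mmp12 each had a second start in the table, without a match. The ninth gene of the row, Mmp8, a collagenase best known from neutrophils, had no match and is printed for comparison.

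Mmp8 (chr9:7558329-7558428, plus strand): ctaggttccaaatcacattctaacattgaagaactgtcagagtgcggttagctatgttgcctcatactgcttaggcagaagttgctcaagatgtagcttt

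Of the 13 other members with a promoter window, none had a match in these 100 bases. Across all genes with a window the share, for the same pattern with any middle base, was 3.18% (859 of 27025). The clustered genes are neighbours of the same family, so their matches need not be independent, and the difference in shares was not tested. In the full 250 bases before the start the same 8 member genes held the motif, against 7.82% of all genes, and no member held a CRE (TGACGTCA, the same on both strands) or a serum response element. A match describes letters and no binding was measured. Over the same 8 arrays the AP-1 genes Fos, Fosb and Jun were above background, while the 8 Mmp genes were not above it. Fos, Fosb and Jun had mean log2 values of 12.4, 12.1 and 11.7 in WT and 12.2, 11.9 and 11.4 in cKO. AP-1 protein was not measured, and any relation between it and the Mmp genes was not tested. The windows of the members that changed, or came nearest to the threshold, follow, as those the genotype comparison turns on.

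Adamts1 (chr16:85803114-85803213, minus strand): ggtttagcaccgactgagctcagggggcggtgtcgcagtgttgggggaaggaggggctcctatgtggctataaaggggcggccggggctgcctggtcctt
Adamts3 (chr5:89883335-89883434, minus strand): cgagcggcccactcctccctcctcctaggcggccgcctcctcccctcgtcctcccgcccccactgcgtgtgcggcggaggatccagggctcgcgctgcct
Timp3 (chr10:86300312-86300411, plus strand): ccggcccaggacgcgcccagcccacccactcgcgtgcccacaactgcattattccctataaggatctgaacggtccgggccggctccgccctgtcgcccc
Mmp11 (chr10:75932503-75932602, minus strand): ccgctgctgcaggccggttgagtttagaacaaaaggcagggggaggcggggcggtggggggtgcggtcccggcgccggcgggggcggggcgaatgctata

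These 4 windows were 65.0% to 76.0% G or C, against 38.0% to 51.0% in the 8 Mmp windows with the motif.

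The comparison of genotypes asked which of these genes differed with G9a loss. Adamts1 and Adamts3 were lower in cKO, by 2.09-fold and 1.49-fold, and no member rose past the threshold (limma, Benjamini-Hochberg over all genes, adjusted p under 0.05). Timp3, Mmp2 and Adamts5 read lower and Mmp11 read higher in cKO without passing it. Of all genes tested 2.76% were called, 1.92% as higher and 0.836% as lower, against 0 of 35 and 2 of 35 members. At an unadjusted limma p under 0.05, 7 members were lower and 1 higher, against 5.57% and 8.16% of all genes. The cKO and WT values did not overlap in 2 lower members (3.09% of all genes) and 1 higher member (5.15%; 8.24% in either direction). The median log2 change was -0.038 over the 35 members, of which 25 lay below 0, and 0.0027 over all genes, of which 48.5% lay below 0. Over the 15 members above background, which Adamts3 joined through its WT arrays alone, it was -0.12 with 10 below 0. The median of the 35 includes the 20 genes not above background, where the sign of a change says little. The all-gene share was not matched for expression level. When each of the 63 probe sets was tested, 5 probe sets of 4 genes were called lower and 0 higher, where 0.591% of all probe sets were lower and 1.19% higher (1.78% together). The 5 belonged to Adamts1, Adamts3, Adamts5 and Timp3.

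**Figure D2:**
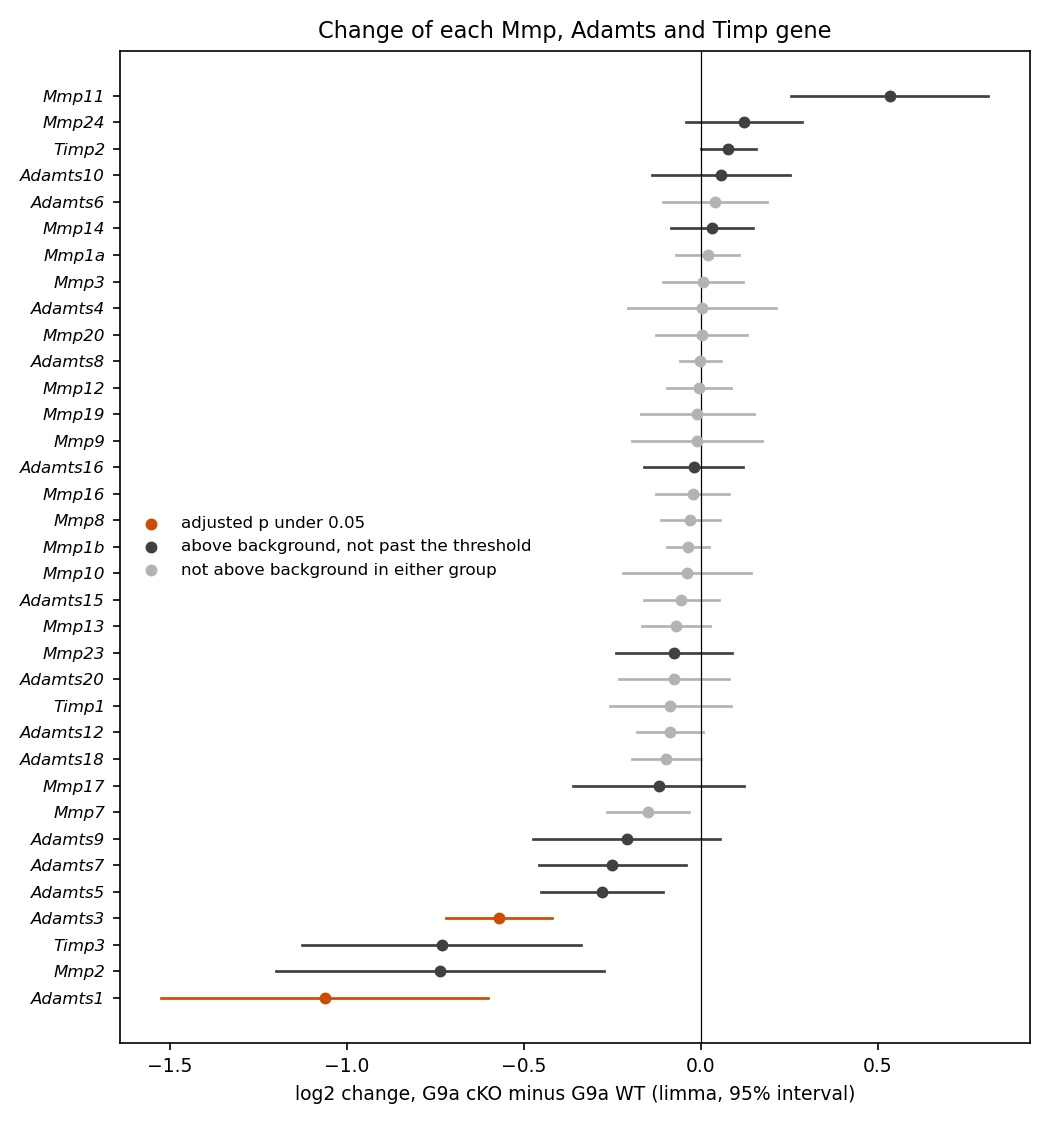
The log2 change (G9a cKO minus G9a WT) of each of the 35 genes with its 95% interval from limma, sorted by size; 4 arrays per genotype. The intervals are not adjusted for the number of genes. Those of Adamts1 and Adamts3, the genes past the threshold, lie wholly below 0. So do those of Timp3, Mmp2, Adamts5, Adamts7 and Mmp7, which did not pass, and that of Mmp11 lies wholly above 0. The intervals of the genes not above background all lie within -0.27 and 0.21.

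Among the Adamts genes, Adamts1 showed the largest difference of all members. Its product, a secreted protease that cuts the proteoglycans versican and aggrecan, is known from ovulation and vessel growth, and its gene responds early to inflammatory and growth stimuli. Adamts1 read 7.02, 7.25, 6.66 and 7.11 in cKO replicates 1 to 4 and 8.28, 8.36, 8.28 and 7.37 in WT replicates 1 to 4 (log2). The groups did not overlap, but WT replicate 4 lay close to the highest cKO array and far below the other WT arrays. The means were 7.01 ± 0.25 and 8.07 ± 0.47 (SD, n = 4 each), and the log2 change was -1.06 (SE 0.21, limma adjusted p = 0.0233). It was read by 1 probe set.

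The call of Adamts1 depended on single arrays. Without WT replicate 4 the log2 change was -1.30 (limma adjusted p = 0.000784). It did not pass without cKO replicate 3, cKO replicate 4, WT replicate 1, WT replicate 2 or WT replicate 3, where the change ran from -1.10 to -0.95 and the limma adjusted p from 0.0592 to 0.0853. Immediate early genes, a class switched on quickly by growth signals and by the handling of tissue, moved with it. All 19 measured were below 0 in cKO (median log2 change -0.29), none past the threshold. Their mean deviation by array was 0.27, 0.33 and 0.20 in WT replicates 1 to 3, -0.15 in WT replicate 4 and -0.25 to -0.07 in the cKO arrays, so WT replicate 4 lay among the cKO arrays. With this mean in the model, the change of Adamts1 was -0.40 (limma adjusted p = 0.474, where its other alternatives ran from 0.000784 to 0.0853). Its SE was 0.16 in that model and 0.21 without the mean. The immediate early mean was lower in every cKO array than in WT replicates 1 to 3. A model holding this mean therefore cannot tell genotype and immediate early state apart, for Adamts1 or any other member.

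Adamts3 encodes a procollagen N-proteinase that also helps to activate the lymphatic growth factor VEGF-C. It read 5.59, 5.56, 5.36 and 5.49 in cKO replicates 1 to 4 and 6.05, 6.10, 6.17 and 5.96 in WT replicates 1 to 4. Every cKO array lay below every WT array, with little spread inside either group. The means were 5.50 ± 0.10 and 6.07 ± 0.09 (SD, n = 4 each), the log2 change was -0.57 (SE 0.068, limma adjusted p = 0.00193), and it stayed between -0.61 and -0.53 in the 8 fits that left out 1 array, all of which passed. The cKO values are close to the background level, so the change is on the compressed part of the scale. Its second probe set was below background in all arrays, at 4.19 ± 0.06 in cKO and 4.32 ± 0.05 in WT, again without overlap (limma adjusted p = 0.210 over all probe sets). Once the immediate early mean was in the model, the log2 change was -0.45 (SE 0.091 against 0.068 without it, limma adjusted p = 0.0926). In its other alternatives the limma adjusted p ran from 0.000992 to 0.0169.

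Adamts5, an aggrecan-cutting enzyme whose gene directly neighbours Adamts1 on chromosome 16, had 4 probe sets that did not give the same result. The brightest, which was the one tested for the gene, read 5.59, 5.49, 5.55 and 5.67 in cKO and 5.81, 5.93, 6.00 and 5.67 in WT. WT replicate 4 was level with cKO replicate 4, and the log2 change was -0.28 (SE 0.077, limma adjusted p = 0.101). The first of the others averaged 4.67 ± 0.05 and 5.04 ± 0.13 (cKO and WT), below background throughout, and fell (log2 change -0.38, limma adjusted p = 0.0151 over all probe sets). Another averaged 5.34 ± 0.05 and 5.71 ± 0.12, above background in WT alone, and fell too (-0.37, limma adjusted p = 0.0223 over all probe sets). Near the floor of the scale, the dimmest probe set read 4.05 ± 0.07 and 4.04 ± 0.05. The 3 brighter probe sets thus all lay lower in cKO, but none of the calls came from a probe set above background in both groups. Without WT replicate 4 the tested probe set passed as well (log2 change -0.34, limma adjusted p = 0.0238, over alternatives from 0.0238 to 0.737).

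Adamts7, a protease that cuts the cartilage matrix protein COMP, read 6.70 ± 0.10 in cKO and 6.95 ± 0.19 in WT (SD, n = 4 each). WT replicate 2, at 6.70, lay inside the cKO range of 6.58 to 6.81, and the difference did not pass (log2 change -0.25, SE 0.094, limma adjusted p = 0.246). Adamts9, which cuts versican, read 6.84 ± 0.17 and 7.05 ± 0.23, with overlapping arrays (limma adjusted p = 0.508, 95% interval of the log2 change -0.48 to 0.055). The 14 Adamts genes together had 11 changes below 0 and a median log2 change of -0.082; 7 of the 14 were not above background in either group.

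**Figure D3:**
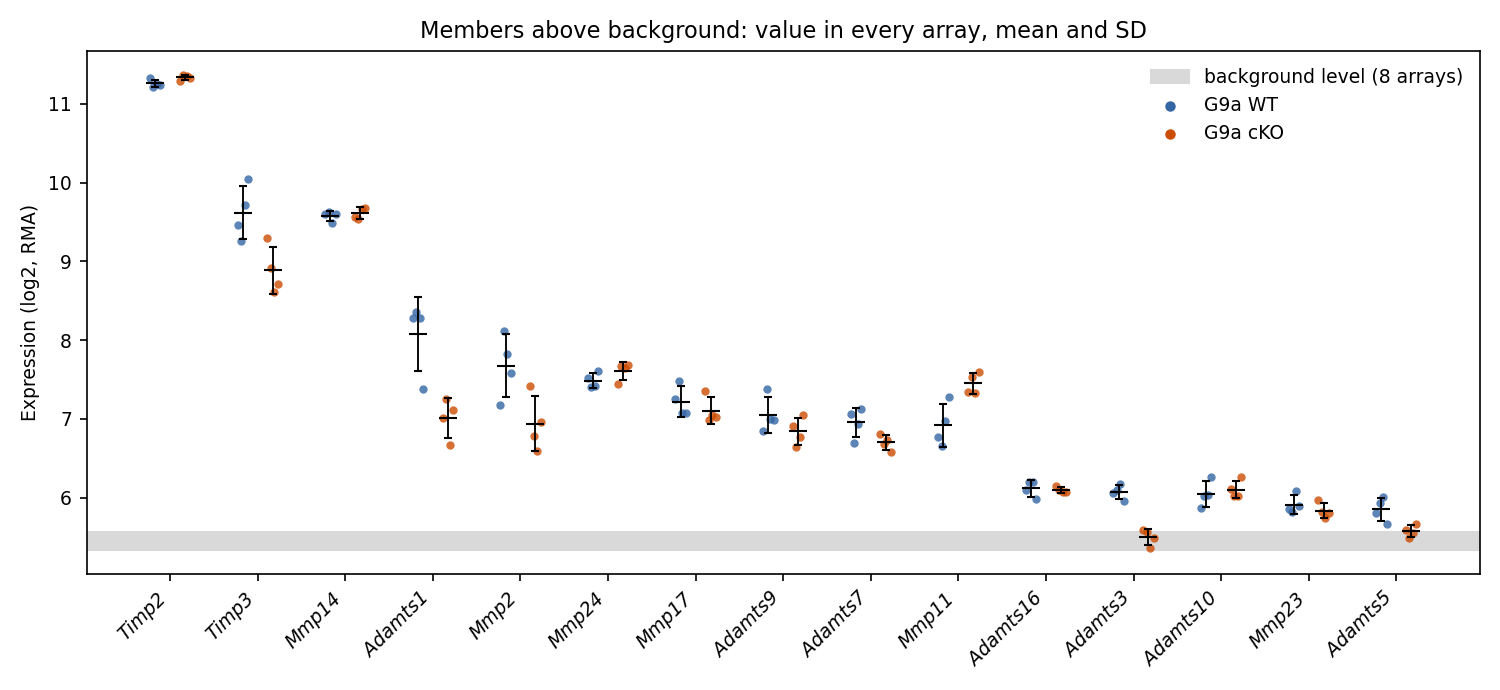
Expression (log2, RMA) in every array of the 15 genes above background in at least 1 genotype, with the mean and SD of 4 arrays; the grey band spans the background levels. The WT and cKO points of Adamts1, Adamts3 and Mmp11 do not overlap, and WT replicate 4 of Adamts1, at 7.37, stands apart from the other WT arrays at 8.28 to 8.36.

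No Mmp gene passed the threshold. Mmp11 encodes stromelysin-3, a protease usually made by stromal cells next to growing or regressing epithelium. It read 7.34, 7.54, 7.33 and 7.60 in cKO replicates 1 to 4 and 6.77, 6.66, 6.97 and 7.28 in WT replicates 1 to 4. All cKO arrays lay above all WT arrays, and WT replicate 4 again came closest to the cKO arrays. The means were 7.45 ± 0.14 and 6.92 ± 0.27 (SD, n = 4 each), and the 1.45-fold difference (log2 change 0.53, SE 0.13) had a limma adjusted p of 0.0545. Without WT replicate 4 it passed (log2 change 0.65, limma adjusted p = 0.00553), and with the immediate early mean in the model the change was 0.18 (limma adjusted p = 0.740; its other alternatives ran from 0.00553 to 0.173).

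Mmp2, the gelatinase that cuts basement membrane and denatured collagen, read 7.41, 6.78, 6.60 and 6.95 in cKO and 7.17, 8.11, 7.83 and 7.58 in WT. The groups overlapped, because cKO replicate 1 read above WT replicate 1. The means were 6.94 ± 0.35 and 7.67 ± 0.40 (SD, n = 4 each; log2 change -0.74, SE 0.21, limma adjusted p = 0.110). It passed without cKO replicate 1 (-0.90, limma adjusted p = 0.0398) and without WT replicate 1 (-0.90, limma adjusted p = 0.0477) over alternatives from 0.0294 to 0.667, and the change ran from -0.90 to -0.59 over the 8 fits without 1 array. Mmp14, the membrane-bound enzyme that activates the Mmp2 precursor on the cell surface, was nearly level across all arrays, at 9.61 ± 0.07 in cKO and 9.58 ± 0.06 in WT. Its log2 change was 0.032 with a 95% interval of -0.085 to 0.15 (limma adjusted p = 0.897), and its second probe set gave 0.052.

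The other membrane-type genes above background did not pass either. Mmp24 read 7.61 ± 0.12 in cKO and 7.49 ± 0.10 in WT (95% interval of the log2 change -0.043 to 0.28). Mmp17 read 7.10 ± 0.17 and 7.22 ± 0.19 (95% interval -0.36 to 0.12). The 18 Mmp genes had 12 changes below 0 and a median log2 change of -0.017.

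Timp3 and Timp2, the inhibitor genes above background, did not pass the threshold. Timp3 encodes a matrix-bound inhibitor that acts on Adamts enzymes and the shedding protease Adam17 as well as on Mmp enzymes. It read 9.30, 8.92, 8.61 and 8.72 in cKO replicates 1 to 4 and 9.46, 9.26, 9.71 and 10.04 in WT replicates 1 to 4. Only cKO replicate 1 reached into the WT range, just above WT replicate 2. The means were 8.89 ± 0.30 and 9.62 ± 0.34 (SD, n = 4 each), a 1.66-fold difference (log2 change -0.73, SE 0.18) with a limma adjusted p of 0.0619. Its 4 probe sets gave log2 changes of -0.86 to -0.72, and 1 of them fell past the threshold over all probe sets (7.31 ± 0.33 against 8.18 ± 0.33, limma adjusted p = 0.0417) with no overlap of the groups. The tested probe set passed without cKO replicate 1 (-0.87, limma adjusted p = 0.0235) and without WT replicate 2 (-0.85, limma adjusted p = 0.0382). It also passed after quantile normalization and after a shift to a common median (limma adjusted p = 0.0477 and 0.0471).

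Timp2, which inhibits Mmp enzymes and also serves Mmp14 in activating the Mmp2 precursor, had 5 probe sets, all with a higher mean in cKO by 0.071 to 0.14. The tested one read 11.33 ± 0.03 in cKO and 11.26 ± 0.05 in WT (log2 change 0.077, SE 0.035, limma adjusted p = 0.368), and none passed over all probe sets. Values this high on the scale can be compressed by saturation. Timp1, an inhibitor that is often induced in inflamed tissue, was not above background, at 4.38 ± 0.09 and 4.46 ± 0.16 (limma adjusted p = 0.726).

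**Figure D4:**
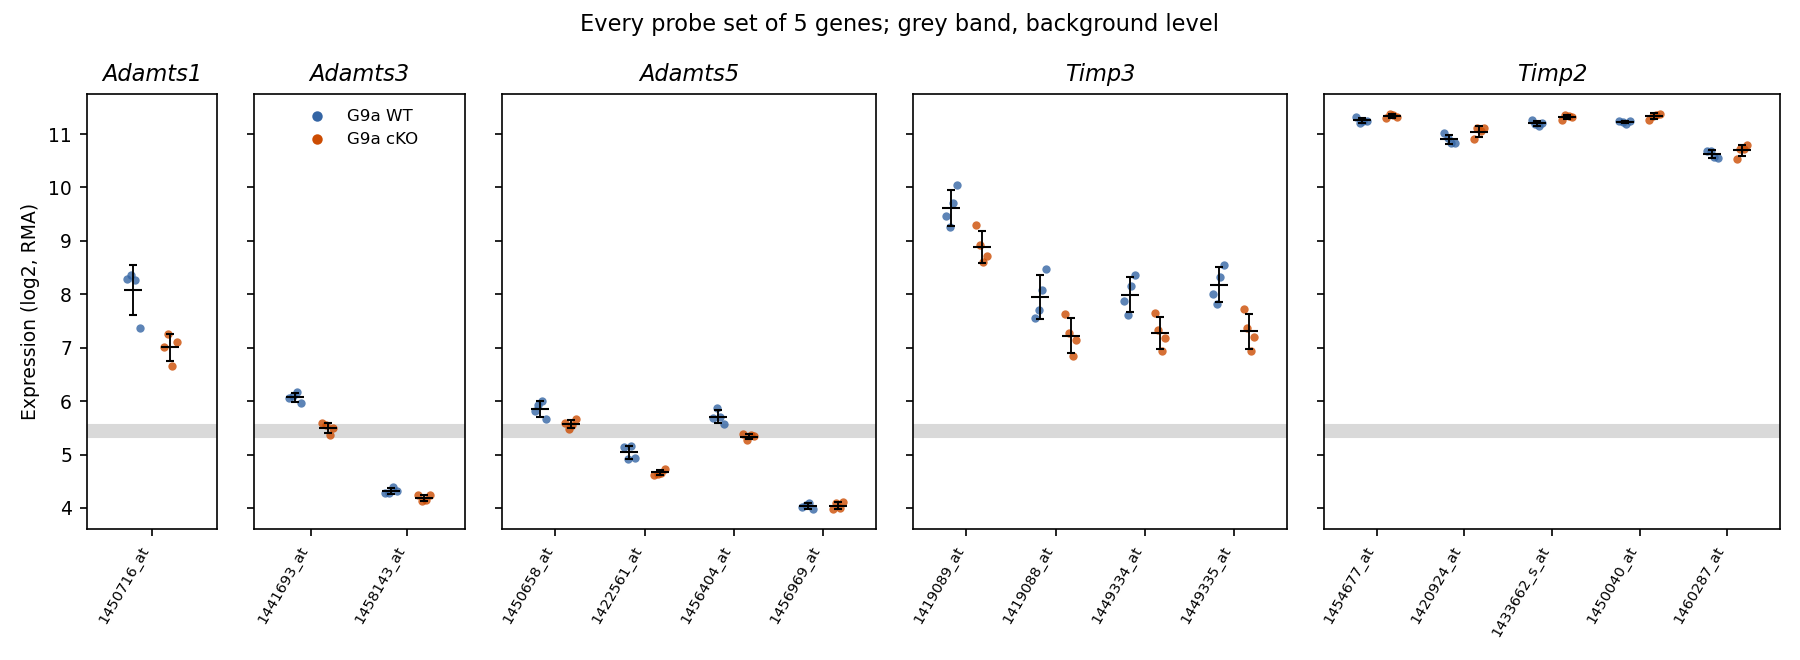
Expression (log2, RMA) in every array for each probe set of Adamts1, Adamts3, Adamts5, Timp3 and Timp2, with the mean and SD of 4 arrays per genotype; the grey band spans the background levels. The 4 Timp3 probe sets differ by a like amount (-0.86 to -0.72), the 3 brighter Adamts5 probe sets lie lower in cKO, and the 5 Timp2 probe sets lie slightly higher.

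Of the 17 members read by more than 1 probe set, 9 had all of them on the same side of 0. The arrays did not order the genes alike. WT replicate 4 was the WT array closest to the cKO arrays in Adamts1 and Mmp11, and within their range in Adamts5, but it was the highest of all arrays in Timp3 and Adamts7. cKO replicate 3 was the lowest array in Adamts1, Mmp2, Timp3 and Adamts3. cKO replicate 1 was the highest cKO array in Mmp2 and Timp3, at the level of the lower WT arrays. In the model that held the immediate early mean, Timp3 had a log2 change of -1.03 (SE 0.25, limma adjusted p = 0.166). In its other alternatives the limma adjusted p ran from 0.0229 to 0.174. The Timp3 change was further from 0 than without the mean (-0.73, SE 0.18), while those of Adamts1 and Mmp11 moved toward 0.

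**Figure D5:**
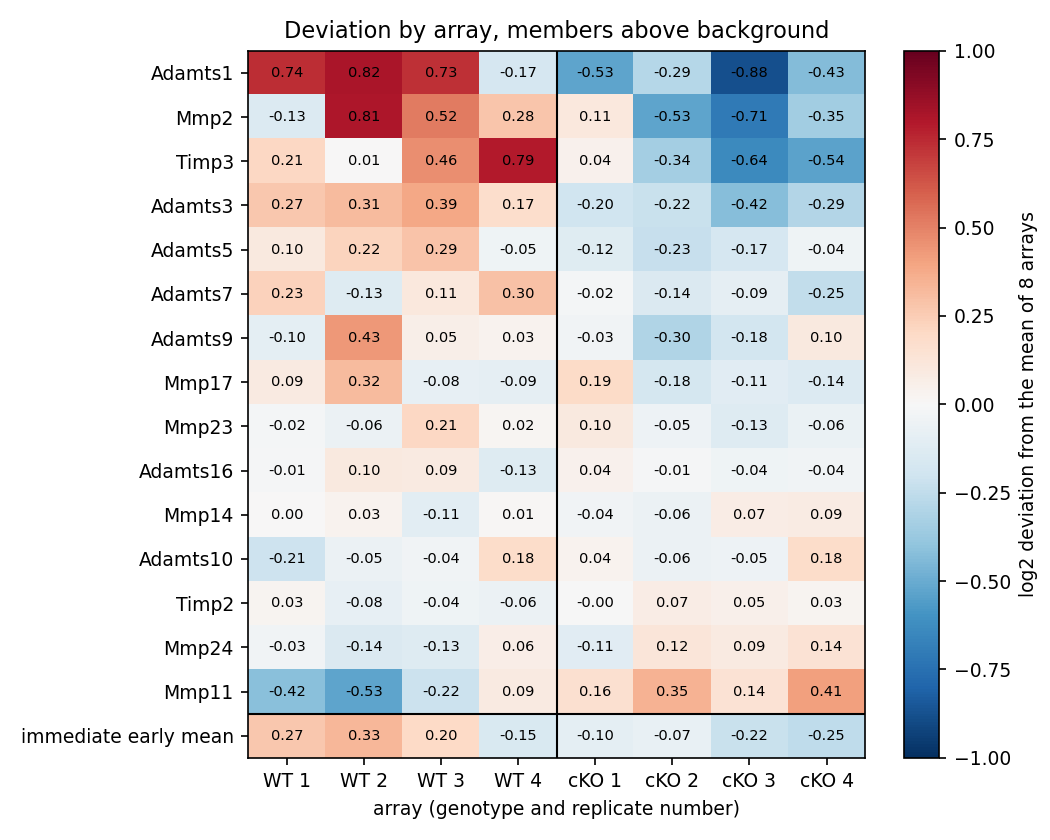
Deviation of each array (log2) from the mean of all 8, for the 15 genes above background in at least 1 genotype, with the mean of 19 immediate early genes in the last line. WT replicate 4 carries a negative value in Adamts1 and in the immediate early mean (-0.15), unlike the other WT arrays, and its highest value is in Timp3.

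Bulk RNA cannot tell fewer cells of a type from less RNA per cell, and Mmp2, Mmp11 and Timp3 are also made by dermal fibroblasts. Of 12 fibroblast markers, 7 were not above background in any array, among them Pdgfra, Lum, Dpt, Col3a1 and Col6a3. The summed linear level of the list was 2379 to 2419 in cKO and 2400 to 2584 in WT, but Fbln1, the gene of the matrix protein fibulin-1, made up 79.0% to 81.5% of it. Without Fbln1, a sum added after the values were seen, it was 461 to 504 in cKO and 469 to 489 in WT. Of its members past the threshold, Col1a1 fell (6.17 ± 0.19 against 7.08 ± 0.11, limma adjusted p = 0.00100) and Thy1 rose (7.47 ± 0.25 against 6.90 ± 0.10, limma adjusted p = 0.0251). Macrophage markers, of which 10 of 12 were not above background in any array and none was above it in both groups, summed to 275 to 301 in cKO and 283 to 370 in WT. For endothelial cells 7 of 9 markers, for neutrophils 6 of 9, for mast cells 6 of 8, for T cells 3 of 6 and for smooth muscle and pericytes 5 of 6 were not above background in any array, and none of these lists had a call. Melanocyte markers were above background in 5 of 7 genes and summed to 1006 to 1226 in cKO and 1066 to 1368 in WT (374 to 427 and 387 to 457 without Mitf, the highest of them), with none past the threshold. Among 8 suprabasal keratinocyte markers, Sbsn rose (log2 change 0.27, limma adjusted p = 0.00213) and Krtdap fell (-0.63, limma adjusted p = 0.0115). The part of any of these cells in the differences of Timp3, Mmp2 or Mmp11 was not tested.

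Genes that work with these enzymes were taken from lists of relatives, activators, inhibitors and substrates. Among 16 relatives of the adamalysin, astacin and neprilysin kind, 1 fell and none rose: Mme, the membrane peptidase neprilysin, averaged 6.65 ± 0.37 over the cKO arrays against 7.77 ± 0.37 over the WT arrays (limma adjusted p = 0.0172). The sheddases Adam10 and Adam17 did not pass (9.34 ± 0.11 against 9.51 ± 0.12, and 9.53 ± 0.04 against 9.55 ± 0.02; limma adjusted p = 0.354 and 0.925). Of 7 Adamts-like proteins, which share the ancillary domains but lack the protease, Papln, the gene of the matrix glycoprotein papilin, fell 1.49-fold (6.96 ± 0.12 against 7.53 ± 0.24, limma adjusted p = 0.0237) and none rose.

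Among 13 other inhibitors, inducers and clearance receptors, 1 rose and 1 fell. Pcolce2, which enhances the procollagen C-proteinase that trims the opposite end of procollagen from Adamts3, rose 1.73-fold, at 9.47 ± 0.16 in cKO against 8.68 ± 0.11 in WT (limma adjusted p = 0.00107). Cd44, a hyaluronan receptor that can dock Mmp9 at the cell surface, fell 1.14-fold (limma adjusted p = 0.0470). Reck, a membrane-bound Mmp inhibitor, was not above background. None of 14 activators and genes of the plasminogen system passed; the lowest p was that of Plaur, the urokinase receptor, which was below background (4.80 ± 0.05 against 4.95 ± 0.07, limma adjusted p = 0.182). Of 23 matrix substrates Col1a1 alone passed. Versican (Vcan), a main substrate of Adamts1, read 5.81 ± 0.10 in the cKO arrays and 5.80 ± 0.11 in the WT arrays. None of 16 AP-1 and ETS factors passed; Junb read 8.82 ± 0.12 and 9.33 ± 0.30 (limma adjusted p = 0.0764) and Fosl1, another AP-1 gene, 8.00 ± 0.16 and 8.56 ± 0.34 (limma adjusted p = 0.0909).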

How the data were processed

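The authors deposited log2 expression values, 1 per probe set, and the submitters' processing notes name RMA without version or settings. Per the labels' protocols, 25 ng of total RNA were amplified with 17 cycles and 8 µg of cDNA were labelled. No further normalization was applied, and the table held 0 columns of other series. Names came from the platform annotation (probe sets: 28898 with 1 symbol, 551 with several, 15692 with none; 104 controls), and all 63 member probe sets had their Entrez identifier in RefSeq. A gene was represented by its brightest probe set on average (17097 genes), tested with limma 3.58.1 in R 4.3.3 (eBayes with trend, two-sided) over 4 against 4 arrays, with genotype alone in the model and dim probe sets kept. Benjamini-Hochberg adjustment ran over all genes, or over all 45037 probe sets without controls where stated. Errors are SD over samples or limma's standard error. The code was tested on simulated data. Named were the members past the threshold, the 10 with the lowest p among those above background, the 10 with the highest WT mean, the Timp genes, and of each related list up to 4 genes past the threshold or the 1 with the lowest p. Collagenases and other members described as groups, Vcan, Reck, Adam10, Adam17, Fos, Fosb, Jun, Junb, Fosl1 and the AP-1 search were added later. Members, lists, background rule and alternatives were chosen with earlier results of these data known. Figures used matplotlib 3.10.9 in Python 3.11.15.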

Additional observations from a re-analysis of the deposited data

Results flagged for a closer look

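Among 70 groups of 4 arrays (35 genes in each genotype), 3 had an array whose gap to its neighbour, as a share of the range of the group, passed Dixon's critical value; chance gives about 1 in 20 such groups. For Adamts1, WT replicate 4 read 7.37, against 8.28 to 8.36 in replicates 1 to 3, a gap of 0.915 of the range. For Adamts18, which was not above background, cKO replicate 1 read 4.01 against 3.91 to 3.93 in the other cKO arrays, and WT replicate 3 read 4.16 against 3.99 to 4.01 in the other WT arrays.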

How the results depend on the processing

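Over 17 alternatives the log2 changes of 13 named members gave 220 values, of which 199 stayed on their side of the threshold, 14 newly passed it and 7 no longer did. Mmp14, Mmp17 and Mmp24, never called, changed sign with the immediate early covariate (-0.011, 0.087 and -0.013). The number of members lower in cKO (2 in the reported fit) was 5 with array weights and 0 with the immediate early covariate. It was 4 when all probe sets were tested and 1 at an adjusted p threshold of 0.01. After quantile normalization, with a common array median, with the mean of all probe sets and at a threshold of 0.1 it was 3. Without 1 array it ran from 1 to 4. It was 4 without cKO replicate 1 and 3 without WT replicate 4. Only Adamts3 was called (1) without cKO replicate 3, cKO replicate 4 or WT replicate 3. Without WT replicate 1 it was 2, with Mmp2 in place of Adamts1. Without WT replicate 2 it was 2, with Timp3 in place of Adamts1. The number higher (0) was 1, Mmp11, after quantile normalization, with array weights and at a threshold of 0.1, and 0 to 1 without 1 array (1 without WT replicate 4). Timp1 was left out with the dim probe sets. With the 99th percentile as background, 8 genes were above it in place of 15. The count was 17 with the 90th percentile and 16 with the 40th percentile of all probe sets. In a replicate block the members called were 2 lower and 0 higher, and over all genes 77 lower and 191 higher in place of 143 and 329. Those counts were 19 and 41 with the covariate, 249 and 483 with array weights, 44 and 159 at 0.01, 247 and 497 at 0.1, and 67 to 294 and 190 to 502 without 1 array (extremes without WT replicate 3 or cKO replicate 2, and without WT replicate 4). Same-numbered arrays shared only a number (correlation of deviations -0.53 to 0.028, with 0 of 4 correlating best with their own number). The 20 genes near the bottom of the scale limit what these arrays can show.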
